A study of Mus musculus with 6 samples.

Results

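The subject of this account is 10 ligands of the TGF-beta family in embryonic mouse samples that are labelled heart and lack Sp3. The marker genes given below go against that label, so it is used here as a label only. The ligands are Lefty1, Lefty2, Nodal, Bmp2, Bmp4, Bmp5, Bmp7, Tgfb1, Tgfb2 and Tgfb3. They were taken as every probe set annotated to 1 of these symbols alone, which gave 19 of the 45037 probe sets measured. Of the ligands, 5 had more than 1 probe set. The ligands were chosen by name, with Lefty1 at their head, after the knockout against wildtype differences of these arrays had been seen. The knockout against wildtype differences of the 19 probe sets are therefore given as a description, with the standard error (SE) of the fit and without a p-value.

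The arrays came from fetuses labelled Sp3 knockout and fetuses labelled wildtype, all at stage E12.5, with 3 arrays per genotype lettered a to c. Per the labels, each array carried the total RNA of 1 heart, marked with biotin. Sp3 belongs to the Sp family of zinc finger proteins, which bind GC boxes in promoters. The labels give no strain, litter, sex or deleted exon for either genotype, and they name no cell type to which the loss is limited. Values below are log2 intensities, and errors are SD over 3 arrays unless named SE.

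TGF-beta family ligands are secreted dimers that bind pairs of serine and threonine kinase receptors and act through Smad proteins. Nodal and the TGF-betas signal mainly through Smad2 and Smad3, and the bone morphogenetic proteins (BMPs) through Smad1, Smad5 and Smad9, with Smad4 shared by both arms. Lefty proteins are members of the family that block Nodal, and the Lefty genes are themselves switched on by Nodal, which makes them part of a feedback loop in left-right patterning. In the embryonic heart, BMPs act on the muscle and on the outflow tract, and TGF-betas act in the change of endocardial cells into cushion mesenchyme.

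The marker genes went against the heart label. Liver markers had a median level at the 99.5th percentile of all probe sets and red cell markers at the 98.6th, against the 37.4th for 14 heart muscle markers, of which 8 were dimmer than the median probe set. In knockout and wildtype, respectively, Afp, alpha-fetoprotein, stood at 13.29 ± 0.06 and 13.28 ± 0.03, Alb, albumin, at 13.16 ± 0.12 and 13.34 ± 0.07, and the embryonic globins Hbb-y at 13.37 ± 0.04 and 13.38 ± 0.03 and Hbb-bh1 at 13.14 ± 0.12 and 13.09 ± 0.26. Among heart muscle markers the highest levels were those of Actc1, cardiac actin, at 8.69 ± 0.40 and 7.61 ± 1.21, and Tnni1, a troponin subunit, at 7.62 ± 0.04 and 7.16 ± 0.40. Some genes that define heart muscle were dim. Myh6, the alpha myosin heavy chain, stood at 2.92 ± 0.48 and 0.91 ± 0.85, and Myl2, the ventricular light chain, at 3.39 ± 0.15 and 1.94 ± 0.76. Nppa, the atrial peptide, was at 3.32 ± 0.59 and 3.78 ± 0.37, and Nkx2-5, a cardiac homeobox factor, at 3.91 ± 0.54 and 3.03 ± 0.57. Other heart muscle markers were brighter than the median probe set by their mean over the 6 arrays. Myl7 was at 7.54 ± 0.48 and 6.85 ± 0.47, the 78.6th percentile. Tnnt2, Myl4 and Myl3 were at the 54.8th, 54.9th and 51.7th percentile. Which tissue the RNA came from is thus not settled by these data, and the ligand levels are those of samples with this makeup. A level is that of the whole sample, and fewer cells of a type cannot be told apart from less RNA per cell. The Sp3 probe set, whose place against the deletion is not known here, read 8.45 ± 0.14 in knockout and 9.72 ± 0.17 in wildtype. It differed by -1.27 between the genotypes (limma adjusted p = 0.00254, and 0.279 in limma without the intensity trend). The knockout arrays thus still gave a bright reading at this probe set.

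The listed ligands did not move in 1 direction. Lefty1 was lower in each knockout array than in each wildtype array, as was 1 of the 2 Nodal probe sets. Bmp2, Bmp4, 1 of 3 Bmp7 probe sets and 2 of 4 Tgfb2 probe sets were higher in each knockout array. In all, the genotypes did not overlap in 7 of the 19 ligand probe sets, 5 higher and 2 lower in knockout, where 13.0% of all probe sets did not overlap, 6.15% higher and 6.89% lower. Because the ligands were chosen with this contrast known, nothing is read from that count. Of the 10 ligands, 6 had at least 1 such probe set, while Lefty2, Bmp5, Tgfb1 and Tgfb3 had none. Over the whole table limma called 7 probe sets higher and 7 lower, 0.0311%, at an adjusted p under 0.05, and 7.16% had an unadjusted p under 0.05. In the fit without the intensity trend, where robust estimation was also off, limma called 0 probe sets, and 5.99% had an unadjusted p under 0.05. That fit also made no calls on simulated data with known changes. Those data gave all probe sets of a level class the same spread, so they cannot settle the weight of its 0. On them the main fit recovered 74% of changes of 1 log2 unit and 100% of changes of 2, with 14 false calls.

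**Figure D1:**
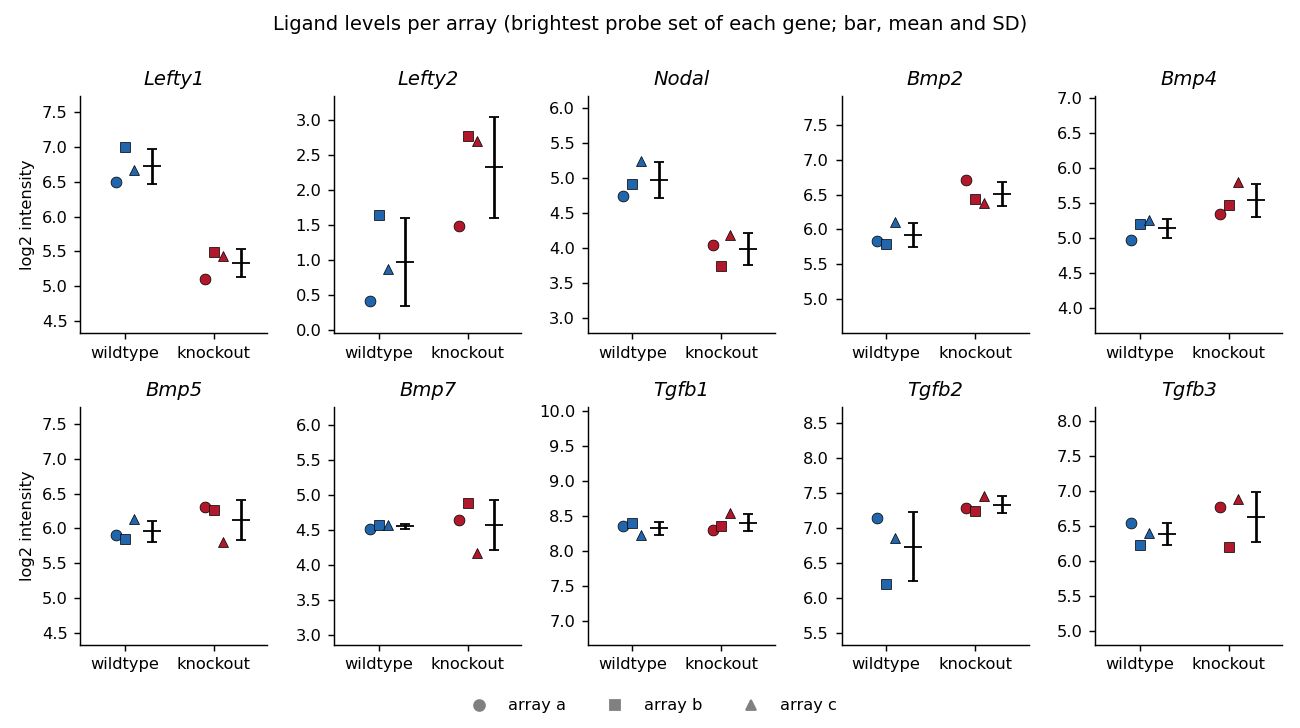
Log2 intensity of the brightest probe set of each of the 10 ligands, with 1 point per array (shape, array letter), wildtype in blue and knockout in red, and a bar for the mean and SD of 3 arrays. Every panel spans the same range of log2 units around its own centre. The Lefty1 points lie between 5.11 and 5.49 in knockout and between 6.50 and 6.99 in wildtype.

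Promoter sequences from RefSeq (GRCm38.p6) were at hand for 5 of the 10 ligands, but not for Lefty1, Lefty2, Bmp2, Bmp7 or Tgfb3. Of the 5, 4 are shown. Nodal, Bmp4 and Tgfb2 had at least 1 probe set whose genotypes separated, and the level of Tgfb1 was alike in both. The window of Bmp5, whose genotypes overlapped, is counted below but not shown. Each is the 250 bases before the annotated start, 5′ to 3′ on the strand of the gene. Capitals mark GC boxes, the kind of element Sp factors are known to bind (GGGCGG on either strand), and TATA elements (TATAAA on either strand).
Nodal, chr10:61417722-61417971, + strand: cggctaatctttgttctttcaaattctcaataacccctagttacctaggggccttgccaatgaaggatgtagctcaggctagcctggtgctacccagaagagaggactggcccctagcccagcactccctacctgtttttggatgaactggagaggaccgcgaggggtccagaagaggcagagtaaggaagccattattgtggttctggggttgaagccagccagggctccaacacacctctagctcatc
Bmp4, chr14:46390670-46390919, - strand: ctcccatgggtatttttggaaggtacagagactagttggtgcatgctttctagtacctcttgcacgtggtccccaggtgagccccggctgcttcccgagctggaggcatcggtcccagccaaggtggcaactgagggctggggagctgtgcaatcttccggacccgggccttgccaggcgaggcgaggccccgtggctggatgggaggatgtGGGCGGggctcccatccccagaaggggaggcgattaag
Tgfb2, chr1:186705990-186706239, - strand: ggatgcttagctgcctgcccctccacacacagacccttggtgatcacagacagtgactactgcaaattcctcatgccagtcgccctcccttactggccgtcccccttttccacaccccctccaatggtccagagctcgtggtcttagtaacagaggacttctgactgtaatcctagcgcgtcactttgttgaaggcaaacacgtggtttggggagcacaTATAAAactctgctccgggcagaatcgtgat
Tgfb1, chr7:25686752-25687001, + strand: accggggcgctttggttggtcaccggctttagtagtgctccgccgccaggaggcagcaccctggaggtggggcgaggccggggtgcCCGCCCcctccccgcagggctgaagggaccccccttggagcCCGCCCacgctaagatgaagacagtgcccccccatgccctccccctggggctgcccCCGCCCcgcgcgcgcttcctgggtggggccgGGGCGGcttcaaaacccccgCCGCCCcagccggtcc

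The Tgfb1 window held 5 GC boxes and the Bmp4 window 1, while those of Nodal, Tgfb2 and Bmp5 held 0. A GC box was present in 32.7% of the 32851 promoter windows of this length. The Tgfb2 window held 1 TATA element, which begins 31 bases before the start, and 12.4% of all windows held one. The palindromic Smad element GTCTAGAC was in none of the 5 ligand windows and in 0.167% of all windows. The GC content was 75.2% for Tgfb1, 63.2% for Bmp4, 53.6% for Tgfb2, 53.2% for Nodal and 42.8% for Bmp5, against a median of 52.4%. These matches describe the letters of the windows, and no binding was measured.

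Lefty1, a Nodal antagonist of the embryonic midline, had the clearest separation of the ligands. Its single probe set (1417638_at) read 5.11, 5.49 and 5.44 in the knockout arrays, taken from a to c, and 6.50, 6.99 and 6.67 in the wildtype arrays in the same order, which is kept below. The highest knockout array thus lay below the lowest wildtype array by more than the SD of either group. The means were 5.34 ± 0.20 in knockout and 6.72 ± 0.25 in wildtype, a difference of -1.38 with SE 0.23, or 2.6-fold higher in wildtype. In intensity units the knockout mean was 40.9 ± 5.56 and the wildtype mean 107 ± 18.9. The probe set stood at the 66.6th percentile of all probe sets, well above the dim range. The difference lay between -1.49 and -1.24 when each array was left out in turn, and was -1.10 with 16 intensity units added before log2.

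Lefty2, the paralogue expressed on the left side of the early embryo, was read only near the bottom of the scale. Its probe set (1436227_at) read 1.49, 2.78 and 2.70 in knockout and 0.42, 1.65 and 0.87 in wildtype. Knockout a lay below wildtype b, so the groups overlapped. The difference was 1.35 with SE 0.96, which is opposite in sign to that of Lefty1, but its mean lay in the second dimmest of 10 level classes. The median residual SD there was 1.39, and the difference was 0.24 with 16 units added before log2, so its size is not exact.

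Nodal, the ligand that Lefty proteins block, had probe sets that did not move together. At 1422058_at it read 4.05, 3.74 and 4.19 in knockout and 4.74, 4.92 and 5.25 in wildtype. All knockout arrays lay below all wildtype arrays, and the difference was -0.98 with SE 0.37, or 1.97-fold higher in wildtype. This probe set was at the 49.3rd percentile, and its difference was -0.57 with 16 units added. At the other, 1422057_at, the values scattered from -0.23 to 3.85 in knockout and from -0.56 to 3.53 in wildtype. Its difference of 0.41 with SE 1.34 lay inside the SDs of 2.15 and 2.11, and it changed sign when knockout a or wildtype a was left out, at -0.42 and -0.76. That probe set lies in the second dimmest class, so the lower Nodal level in knockout rests on 1422058_at.

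Among the BMPs, Bmp2, a ligand that patterns heart muscle at the atrioventricular canal, was higher in knockout. Its only probe set (1423635_at) read 6.71, 6.43 and 6.38 in knockout and 5.84, 5.79 and 6.11 in wildtype. The lowest knockout array was above the highest wildtype array, wildtype c. The means were 6.51 ± 0.17 and 5.92 ± 0.17, and the difference was 0.59 with SE 0.21, or 1.51-fold. It lay between 0.49 and 0.69 with each array left out.

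Bmp4, a ligand of the outflow tract and of early mesoderm, was separated by a narrow margin. It read 5.34, 5.48 and 5.81 in knockout and 4.98, 5.20 and 5.26 in wildtype. Knockout a and wildtype c nearly met, and the groups overlapped after quantile normalization or median centring of the arrays. The difference was 0.40 with SE 0.26, and it was 0.33 and 0.32 under those scalings, so the sign held while the separation did not. Without knockout c it was 0.26.

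Bmp7 and Bmp5, BMPs with partly shared roles in the heart, gave readings that depended on the probe set. At 1435479_at Bmp7 read 4.93, 4.94 and 4.92 in knockout and 4.35, 3.40 and 2.30 in wildtype. The knockout arrays were almost equal and the wildtype arrays were widely spread. The difference of 1.58 with SE 0.53 was 1.06 without wildtype c and 0.77 with 16 units added. The brightest Bmp7 probe set, 1418910_at, averaged 4.57 ± 0.36 in knockout and 4.55 ± 0.04 in wildtype, a difference of 0.02 with SE 0.36. Its sign turned after quantile normalization and median centring, at -0.05 and -0.06. The third, 1432410_a_at, was at 4.11 ± 0.09 and 3.56 ± 1.11, and its difference went from 0.55 to -0.09 without wildtype c, the array that read 2.28. The Bmp7 probe sets therefore gave no common size, and wildtype c was the lowest array at 2 of them.

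Bmp5 overlapped between the genotypes at its 3 probe sets. The brightest, 1455851_at, averaged 6.12 ± 0.28 in knockout and 5.96 ± 0.15 in wildtype, with a difference of 0.16 and SE 0.22. At 1421283_at and 1421282_at the differences were -0.35 with SE 0.37 and -0.12 with SE 0.41. The signs thus disagreed among probe sets, and no difference exceeded its SE.

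Of the TGF-betas, Tgfb2, the isoform of the cushions and outflow tract, was higher in knockout at all 4 of its probe sets. The brightest, 1423250_a_at, read 7.28, 7.24 and 7.46 in knockout and 7.14, 6.19 and 6.85 in wildtype. The groups did not overlap, and wildtype b was the low array. The means were 7.33 ± 0.12 and 6.73 ± 0.49, and the difference was 0.60 with SE 0.22, which was 0.33 without wildtype b. The probe set 1450923_at read 6.26, 5.93 and 6.55 in knockout and 5.81, 5.51 and 5.66 in wildtype, again without overlap. Its difference of 0.58 with SE 0.23 was 0.51 without wildtype b, so this probe set did not depend on that array. The remaining probe sets overlapped, with differences of 0.52 with SE 0.32 at 1450922_a_at and 0.43 with SE 0.42 at 1438303_at, which were 0.21 and 0.24 without wildtype b and 0.30 and 0.27 without knockout c. Wildtype b was the lowest of the 6 arrays at all 4, and these probe sets read 1 gene, so they are not separate results.

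Tgfb1, the isoform of blood and endothelium, was nearly level between the genotypes. At 1420653_at it averaged 8.40 ± 0.12 in knockout and 8.32 ± 0.09 in wildtype, a difference of 0.08 with SE 0.12. At 1445360_at it was at 5.04 ± 0.29 and 5.08 ± 0.16, a difference of -0.04 with SE 0.29. Tgfb3, the third isoform, read 6.76, 6.20 and 6.88 in knockout and 6.54, 6.22 and 6.40 in wildtype. Knockout b lay below every wildtype array, and the difference of 0.23 with SE 0.22 lay between 0.10 without knockout c and 0.44 without knockout b. For Tgfb1 and Tgfb3 the differences were thus close to their errors or smaller.

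**Figure D2:**
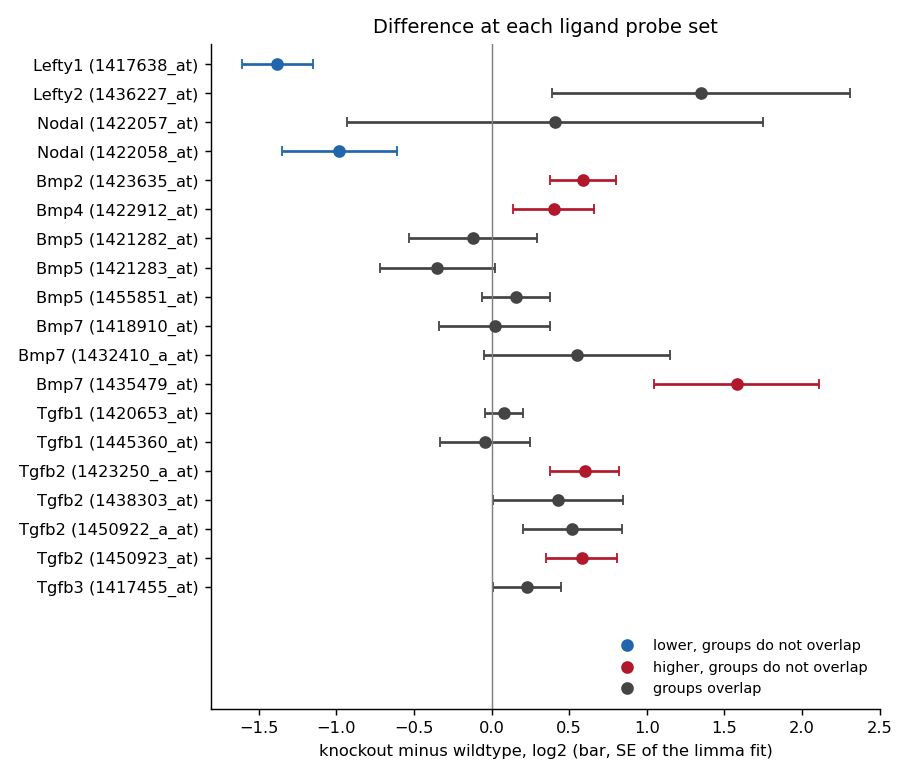
Knockout minus wildtype difference in log2 intensity at each of the 19 ligand probe sets, with bars for the SE of the limma fit over 3 arrays per genotype. Blue and red mark probe sets whose genotypes did not overlap, lower or higher in knockout, and grey marks the rest. Lefty1 at -1.38 and Nodal at -0.98 are the blue points, and the long bars belong to dim probe sets.

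The level of Lefty1 over the 6 arrays was set against 10825 other genes brighter than the median probe set, each by its brightest probe set. Likeness was the root mean square difference between profiles, each centred on its own mean. The 5 nearest were Ehhadh, an enzyme of peroxisomal fatty acid oxidation, at 0.16 log2 units, Tpmt, thiopurine methyltransferase, at 0.17, Ifi30, a lysosomal thiol reductase, at 0.18, and Ttc39a and Ptgr1, a prostaglandin reductase, both at 0.20. In each of these 5, the knockout arrays lay below the wildtype arrays, with means of 4.61 ± 0.28 and 6.06 ± 0.02 for Ehhadh and 4.74 ± 0.10 and 6.22 ± 0.27 for Tpmt. They were found by their likeness to a profile that separates the genotypes, so their own separation is no further result. The single Lefty1 probe set leaves no second reading of that profile.

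**Figure D3:**
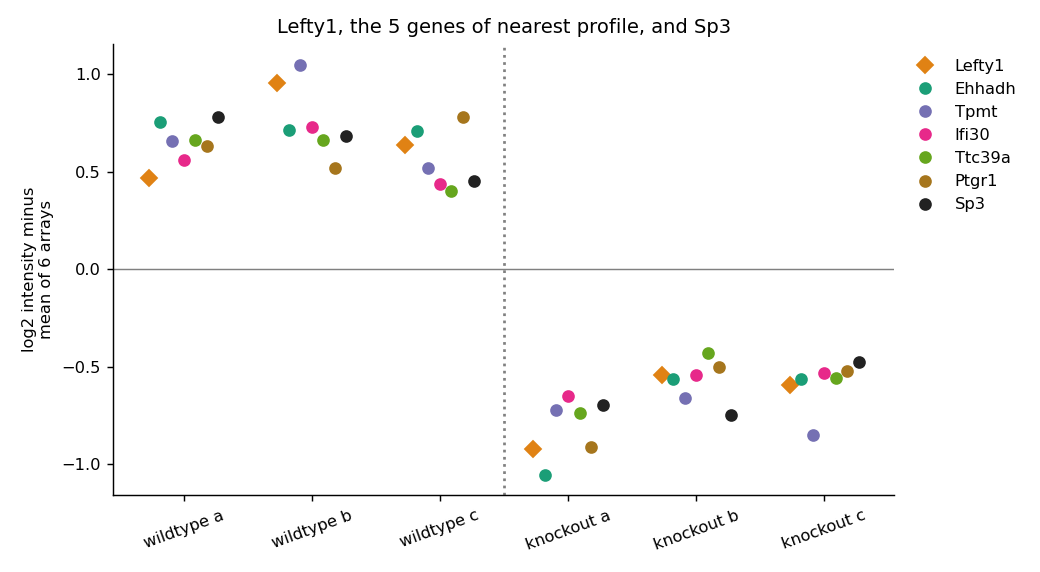
Log2 intensity minus the mean of the 6 arrays for Lefty1 (orange diamonds), the 5 genes whose profiles lay nearest to it, and Sp3 (black), with 1 point per gene and array. All 7 genes lie above 0 in the 3 wildtype arrays and below 0 in the 3 knockout arrays.

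The rest of the pathway was read through 8 lists of 115 genes in all, of which 103 had a probe set of their own that could be used here. In limma 0 of the 103 passed at an adjusted p under 0.05, where 0.0495% of the 18193 genes passed, and 7 had an unadjusted p under 0.05, 4 higher and 3 lower. That is 6.8% against 8.71% of all genes, of which 3.2% were higher and 5.51% lower. Without the intensity trend 8 had an unadjusted p under 0.05, against 5.93% of all genes. The genotypes did not overlap in 13 of the 103, or 12.6%, against 15.1% of all genes. The genes named below are those of smallest unadjusted p and highest level in each list, so their sizes are the extremes of the lists. Some genes were in more than 1 list, so the lists are not separate readings. Over all 18193 genes, 8650 differences were above 0 and 9543 below.

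Receptors and co-receptors showed small differences. Of 19 genes 0 passed limma in either direction and 0 had an unadjusted p under 0.05, with 13 above and 6 below 0 and a median difference of 0.10, against -0.02 over all genes. That median was 0.25 without knockout b and 0.00 without wildtype b. Bmpr1a, a type I BMP receptor, stood at 8.24 ± 0.24 in knockout against 7.92 ± 0.27 in wildtype, and its limma adjusted p was 0.723. Acvrl1, the type I receptor of endothelium, was at 4.37 ± 0.37 and 3.56 ± 0.63, with adjusted p = 0.754, and Acvr1b, a receptor for Nodal and activin, differed by 0.24. The brightest, Tgfbr3, a co-receptor for the TGF-betas, and Bmpr2, the type II BMP receptor, differed by 0.03 with SE 0.12 and 0.10 with SE 0.14. The Nodal co-receptor Tdgf1 lay in the dimmest class, at 0.32 on average in knockout and 0.24 in wildtype.

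Of 15 Smads and their partners, 0 passed limma, and the single gene with an unadjusted p under 0.05 was higher. The median difference was 0.22, with 12 above and 3 below 0. Smad1, which carries BMP signals, read 7.86, 7.61 and 7.83 in knockout and 7.45, 7.01 and 7.49 in wildtype, a difference of 0.45 with limma adjusted p = 0.649. Its groups did not overlap, although the p missed the threshold. Smad4 was at 9.06 ± 0.10 and 8.80 ± 0.20, and Smad7, an inhibitory Smad, at 6.24 ± 0.51 and 5.69 ± 0.38. Trim33, a ubiquitin ligase that acts with Smads, differed by -0.16 with SE 0.12. Without wildtype b the median of the list was 0.09 and without knockout c it was 0.06.

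The antagonists were the only list of the 8 with a median below 0, at -0.40, with 5 genes above and 10 below. Of its 15 genes 0 passed limma, and 2 had an unadjusted p under 0.05, both lower. Chrd, chordin, a BMP antagonist, was at 1.66 ± 0.29 and 3.88 ± 0.50, with limma adjusted p = 0.640. Sostdc1, an antagonist of BMPs, was at -0.35 ± 1.32 and 2.49 ± 1.20, with adjusted p = 0.656. Both readings are dim. With 16 units added before log2, the difference went from -2.21 to -0.69 for Chrd and from -2.83 to -0.40 for Sostdc1. Of the 15 genes, 12 were dimmer than the median probe set, so neither these sizes nor the median of the list is exact. The bright members Twsg1 and Bambi, which bind BMPs and imitate a receptor respectively, differed by -0.40 with SE 0.21 and -0.07 with SE 0.15. The median of the list was -0.13 without knockout c and -0.62 without wildtype b.

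Among 14 genes that process or activate the ligands, 0 passed limma and 0 had an unadjusted p under 0.05, and the median was 0.13. Ltbp1, which holds latent TGF-beta in the matrix, averaged 7.08 ± 0.10 in knockout and 6.80 ± 0.18 in wildtype, and Nrros, which holds it on macrophages and microglia, at 7.37 ± 0.23 and 7.63 ± 0.14. Itgb8, an integrin chain that frees TGF-beta, differed by 0.60 with SE 0.46. Thbs1, thrombospondin, and Itgav, an integrin partner chain, differed by 0.12 and -0.07. The sign of this list's median turned without wildtype b, at -0.10, and it was 0.04 without knockout b and 0.22 without wildtype c.

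The 17 other ligands gave 0 calls in limma, with 2 higher and 1 lower at an unadjusted p under 0.05 and a median of 0.28. Inha, the inhibin alpha chain, read 4.90, 5.07 and 5.05 in knockout and 4.33, 3.44 and 4.46 in wildtype, with adjusted p = 0.672. Gdf3, a ligand related to Nodal, was at 7.26 ± 0.47 and 6.76 ± 0.21. Bmp15, an oocyte factor, was at 1.08 ± 1.41 and 3.36 ± 0.27 in the second dimmest class. The brightest were Gdf10, at 9.05 ± 0.23 and 8.81 ± 0.31, and Gdf2, which encodes the circulating ligand BMP9 made in liver, at 7.99 ± 0.05 and 7.87 ± 0.17.

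Genes known as targets of these ligands had medians a little above 0. Smad7 was in both target lists, and Smad6, Smad7 and Skil were also in the list of Smads. Of 12 BMP targets, 0 passed limma and 0 had an unadjusted p under 0.05, with 10 above 0 and a median of 0.22, which ranged from 0.12 (knockout c left out) to 0.38 (knockout b left out). Id2 and Id3, inhibitors of helix-loop-helix factors, each differed by 0.22, with SE 0.20 and 0.17, and Msx2, a homeobox gene, by 1.16 with SE 0.80. Of 11 TGF-beta targets 0 passed limma and 1 had an unadjusted p under 0.05, with 10 above 0 and a median of 0.26, which was 0.09 without wildtype b and 0.17 without knockout c. That gene was Ccn2, connective tissue growth factor, which read 6.66, 6.35 and 6.54 in knockout and 5.92, 5.82 and 6.08 in wildtype, with adjusted p = 0.630. Cdkn1a, a cell cycle inhibitor, differed by 0.61 with SE 0.31, Skil, a repressor of Smads, by 0.16 with SE 0.13, and Col1a1, a collagen chain, by -0.01 with SE 0.15.

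The left-right cascade outside the Nodal and Lefty genes showed no call in limma among 11 genes, 0 at an unadjusted p under 0.05, and a median of 0.08 with 6 above and 5 below 0. Foxh1, the partner of Smad2 in Nodal signalling, averaged 6.31 ± 0.25 in knockout and 5.95 ± 0.57 in wildtype, and Acvr2b, a type II Nodal receptor, at 6.47 ± 0.64 and 6.07 ± 0.31. Dand5, a Nodal antagonist of the node, was at 3.53 ± 1.02 and 4.42 ± 0.22. Of the 11 genes 9 were dimmer than the median probe set, and Tdgf1, Gsc and Fgf8 lay in the dimmest class. The median ran from -0.53 without wildtype c to 0.50 without knockout b, so it had no stable sign.

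**Figure D4:**
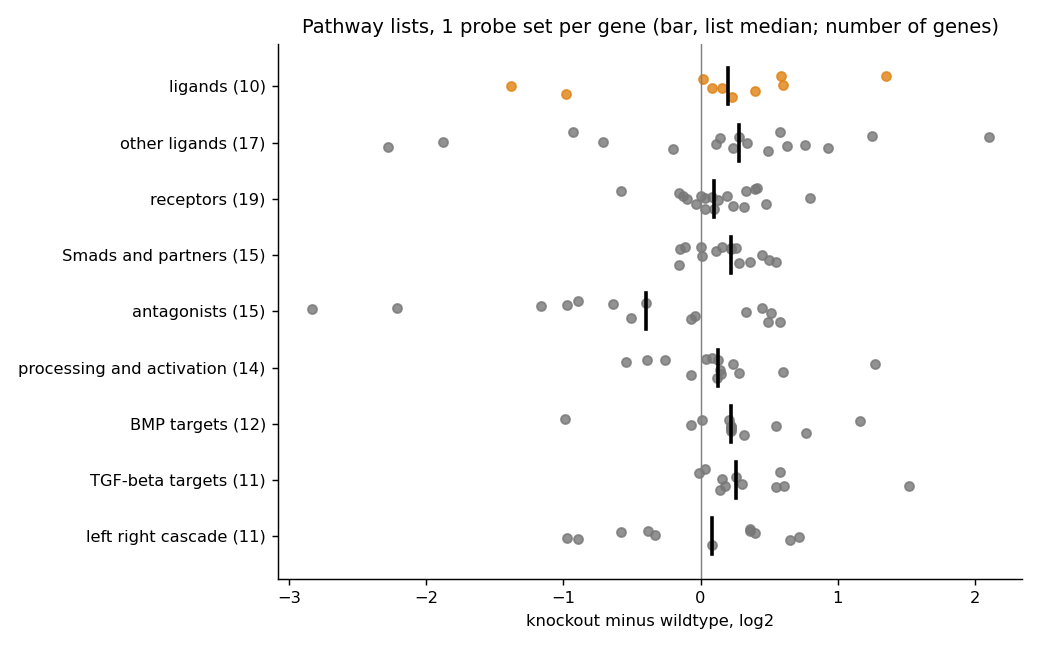
Knockout minus wildtype difference in log2 intensity for each gene of the ligand list (orange) and of the 8 pathway lists (grey), by its brightest probe set, with a bar at the median of each list and the number of genes in brackets. The antagonists, of which 12 of 15 are dimmer than the median probe set, have their median at -0.40, and the others lie between 0.08 and 0.28.

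Marker lists of the cells in these samples were not level between the genotypes. The mean level of 8 macrophage markers lay between 6.55 and 7.29 in knockout and between 7.52 and 7.69 in wildtype, and all 8 were lower in knockout, as Lefty1 was. The median difference of these markers was -0.56, and -0.35 without knockout c, their lowest array. Their summed intensity was 1020 to 1570 against 1960 to 2010, and Csf1r, a receptor of macrophages, was at 9.07 ± 0.29 and 9.58 ± 0.15, with Mrc1, the mannose receptor, at 7.56 ± 0.26 and 7.94 ± 0.19. The mean level of 14 heart muscle markers lay between 4.56 and 4.90 in knockout and between 3.51 and 4.21 in wildtype, with 11 of 14 higher in knockout, as Bmp2 and Tgfb2 were. The median difference of these markers was 0.98, and 0.65 without wildtype b, their lowest array. Their summed intensity was 1030 to 1080 against 391 to 975. In limma 0 genes of either list passed at an adjusted p under 0.05, while 6 of the 8 macrophage markers and 4 of the 14 heart muscle markers had an unadjusted p under 0.05, against 8.71% of all genes. The macrophage markers were all brighter than the median probe set. Of the heart muscle markers 8 were dimmer, and with 16 units added before log2 the difference went from 2.01 to 0.39 for Myh6 and from 1.45 to 0.40 for Myl2, while that of Actc1 was 1.09 and 1.00. The part of both lists in the ligand levels was not tested.

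The other lists overlapped between the genotypes. The 10 mesenchyme markers had mean levels from 8.08 to 8.42 in knockout and from 7.61 to 8.16 in wildtype, with 7 of 10 higher. Wildtype b was their lowest array, as it was for Tgfb2. It was also the lowest for the heart muscle markers, Smads, processing genes, other ligands and both target lists. The summed intensity of the mesenchyme markers was 5790 to 7210 against 5270 to 6280, led by the collagen chains Col3a1 and Col1a2. The 10 endothelial markers were at 6.57 to 6.80 and 6.55 to 6.72, led by Lyve1 and Vwf, with 7 of 10 higher. The 9 liver markers were at 11.42 to 11.58 and 11.46 to 11.73, with 8 of 9 lower, and the 9 red cell markers at 9.89 to 10.54 and 10.42 to 10.61, with 7 of 9 lower. The 4 megakaryocyte markers, led by Pf4 and Ppbp, were at 9.87 to 10.03 and 9.98 to 10.07, with 3 of 4 lower. The 6 epicardial and mesothelial markers, led by Tcf21 and Upk3b, were at 5.72 to 6.14 and 5.34 to 5.94, with 5 of 6 higher. Whether these levels bear on those of the ligands was not tested.

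**Figure D5:**
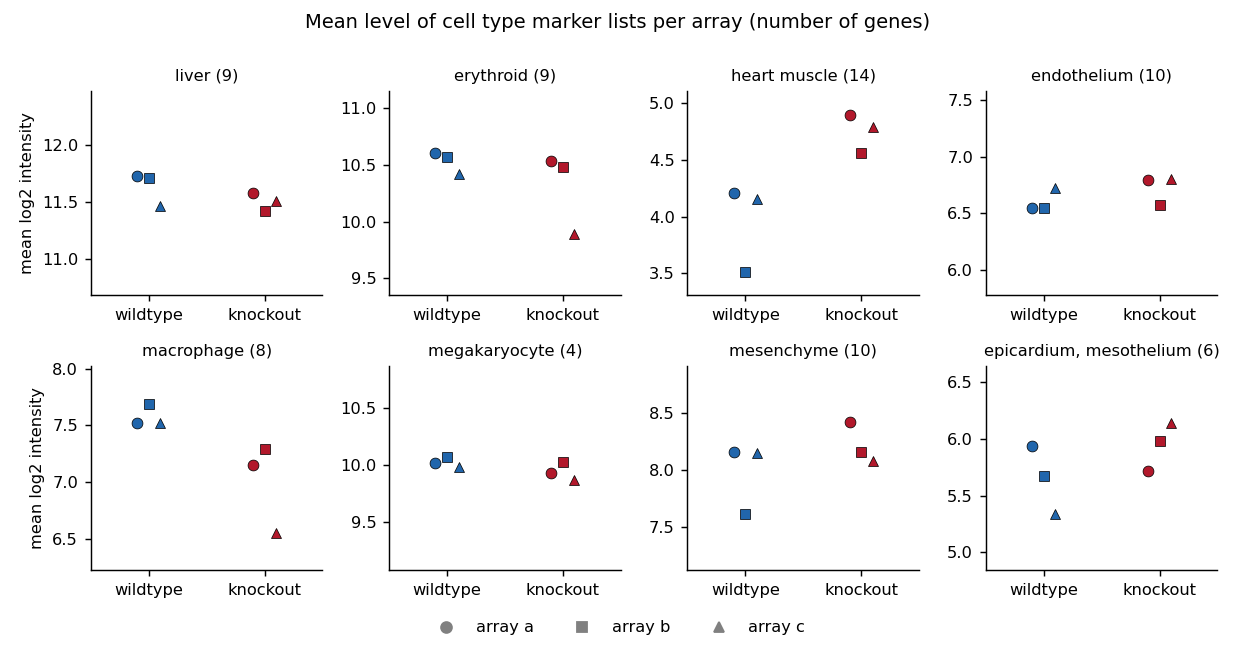
Mean log2 intensity of 8 cell type marker lists in each array (shape, array letter), wildtype in blue and knockout in red, with the number of genes in brackets and every panel spanning the same range. The macrophage points lie lower and the heart muscle points higher in all 3 knockout arrays.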

How the data were processed

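Gene expression was measured on oligonucleotide arrays in 6 mouse samples, 3 Sp3 knockout and 3 wildtype, grouped by their titles. The authors deposited linear intensities. GCOS and RMA are named in the submitters' processing notes, without role or version. Array medians ran from 22.5 to 26.7, and the number of arrays limits the precision.

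The values being linear, log2 was taken and no other normalization was applied. The 64 control probe sets were left out. Genes were named through the platform annotation, which named 1 gene at 34945 probe sets, more at 932 and left 9160 unnamed, and 34741 gene identifiers matched GRCm38.p6. A gene was represented by its brightest probe set. The main test, in R 4.3.3 with limma 3.58.1, was lmFit and eBayes with an intensity trend and robust estimation, group as the only term, all 45037 probe sets, two-sided, Benjamini-Hochberg adjusted p under 0.05. The fit was tested on simulated data with known changes.

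The ligands, gene lists, naming rule and trend fit were chosen with earlier results of these data known. Named genes are all ligand probe sets, the 3 of smallest p and 2 of highest level per pathway list, any called member, the 2 of highest level per marker list, Sp3, and the 5 nearest to Lefty1. Tdgf1, Gsc, Fgf8, Myh6, Myl2, Nppa, Nkx2-5, Myl7, Tnnt2, Myl4 and Myl3 were named beyond the rule after their values were seen. Of the listed genes, 12 in the pathway lists were not analysed here. Each array is a separate heart per the labels, and p-values reflect the spread among these 6 samples. No array pair shared more than 1 value.

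Alternatives were no trend (with robust estimation also off), quantile normalization, median centring, 16 units added before log2, and dim probe sets left out. Further ones were array weights, the letter as a block, all probe sets of a gene, and each array left out.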

Additional observations from a re-analysis of the deposited data

How the results depend on the processing

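Of the 19 ligand probe sets, 14 kept the sign of their difference in each alternative, and 4 of 240 ligand differences moved by more than the SD between replicates. The fit without the trend, the letter block and the filter on dim probe sets cannot change these differences, so their values count for nothing here. All 4 that moved did so with 16 units added before log2, at Lefty1, Lefty2, Nodal 1422058_at and Bmp7 1435479_at. Lefty1 lay between -1.49 and -1.10. The number of ligand probe sets without overlap was 7, and 5 to 7 under the scalings, the added units and the filter on dim probe sets, which held 12 of the 19, where 13.0% to 15.4% of all probe sets did not overlap. Bmp4 lost its separation under quantile normalization and median centring. With an array left out the number was 7 to 9, where 21.2% to 28.2% of all probe sets did not overlap. The number of probe sets called by limma was 14, and 25 with array weights. It was 0 without the trend, a 0 whose weight the simulation could not settle. With an array left out it was 3 to 24: 3 without knockout a, 7 without knockout c, 7 without wildtype a and 24 without wildtype c. The number of pathway genes called was 0 in each alternative, including the fit without the trend, which made no calls at all.

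With the letter as a replicate block, limma called 258 probe sets, 52 higher and 206 lower. Deviations from the group means correlated at 0.01, 0.308 and 0.436 between arrays of letter a, b and c over 22519 probe sets. Across letters, knockout c with wildtype b gave -0.383 and knockout b with wildtype c -0.36. Knockout a correlated best with wildtype b, at 0.128. Letters b and c thus matched across the genotypes, while letter a did not. The labels do not say that a letter marks a pair, so the main fit took no pairs, and whether the letters are pairs is not settled. Dim readings limit Lefty2, 1 Nodal probe set, the antagonists and the left-right genes.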

Other observations

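The neighbours of Lefty1 were read as a description chosen after the data were seen. In the GRCm38.p6 order of genes, the 5 nearest measured genes on each side were taken, leaving out Lefty2. On one side these were Sde2, H3f3a, Acbd3, Mixl1 and Lin9, and on the other Tmem63a, Ephx1, 9130409I23Rik, Nvl and Cnih4. In limma 0 of the 10 passed at an adjusted p under 0.05, and 0 had an unadjusted p under 0.05, against 8.71% of all genes. The genotypes did not overlap in 1 of them, where 15.1% of all genes did not overlap. That gene was Nvl, a ribosome biogenesis factor, at 7.66 ± 0.13 in knockout and 7.90 ± 0.14 in wildtype (SD, 3 arrays each). Tmem63a, a membrane channel protein, was at 5.70 ± 0.41 and 6.03 ± 0.13, and Ephx1, an epoxide hydrolase, at 4.35 ± 0.33 and 4.30 ± 0.38. Mixl1, a homeobox gene of the primitive streak, was at 4.09 ± 0.11 and 3.37 ± 1.36. The difference of -1.38 at Lefty1 was thus not shared in size by any of these 10 genes, although the dim reading of 9130409I23Rik, at 1.94 ± 1.25 and -0.52 ± 3.22, gives no size.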
